A study of Mus musculus with 48 samples.

Results

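The genes described here are the very long genes of mouse embryonic stem cells: those whose annotated span is at least 500000 bases and each of which gathered at least 240 counts over the 24 libraries of synchronized cells. They were chosen by annotated length and by measured counts summed over all 24 libraries, and by no contrast between groups. The rule kept 218 of 54752 annotated genes, and 23 further genes of that length stayed under the count minimum, with totals of 0 to 238. Just inside by counts were Dpp10 with 260, Cntn4 with 261 and Ctnna2 with 265 counts, and just outside were Ralyl and Gm32647 with 238 each and Cntnap5b with 236. Just inside by length were Edil3 (501752 bases), Dock1 (502986) and Stpg2 (504606), and just outside were Pde1c (499300), Dnm3 (495582) and Cacna1e (493771).

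RNA polymerase II copies a gene from end to end before the transcript is complete, so a very long gene keeps a polymerase busy for hours, and its full copying can take up much of a short cell cycle. Many genes of this size encode adhesion molecules, receptors and synaptic scaffolds that are used most in neurons and are barely transcribed in stem cells, and several lie at common fragile sites, regions that break when DNA replication is slowed. In nascent RNA, where only freshly made RNA is sequenced, the reads of such a gene come almost wholly from its introns.

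All 48 libraries were RNA labelled with 4-thiouridine (4SU), a nucleoside that cells take into new transcripts, from mouse embryonic stem cells grown in L2i medium, with 2 libraries in each group. In FOXD3-iKO cells, 4HT (hydroxytamoxifen) removes FOXD3, a forkhead transcription factor, and ethanol (EtOH) is the vehicle. Cycling FOXD3-iKO cells were taken 8, 14, 24 and 32 h after 4HT or EtOH. In OCT4-tetOff cells, taken 16 and 24 h after doxycycline (DOX) or water (H2O), DOX shuts off OCT4, the POU-domain factor that holds the stem cell state. A further set of FOXD3-iKO cells was blocked with thymidine, which stalls DNA replication, let go 24 h after 4HT or EtOH, and taken 0, 1, 2, 3, 4 and 5 h later, with 4 libraries at each hour. Cycling cells were labelled for 30 min and synchronized cells for 15 min. The labels name the cells only as these 2 engineered lines and do not say whether the libraries of a group came from separate cultures, so every p-value here measures the spread between libraries, which may be technical.

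The libraries held 21827951 to 30406124 counts in the cycling FOXD3 set, 21113158 to 26112435 in the OCT4 set and 7953841 to 17936504 in the synchronized set. The long genes took 1.26 to 2.45%, 1.04 to 2.42% and 1.45 to 3.07% of the counts in these sets, after leaving out Gm26917 and Gm42418, which are annotated over ribosomal RNA and took 3.41 to 43% of a library. Levels below are in CPM, a gene's counts scaled by its library's total and TMM factor. At these depths 3 counts, the limit that a count of 0 allows, came to 0.0987 to 0.377 CPM, which covers counting error only. A gene is called changed where the adjusted p of edgeR's quasi-likelihood test was under 0.05 over all genes tested. Changes are log2 fold changes with their standard error.

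The targeted genes went the way of the labels. Foxd3 averaged 1.94 CPM in 4HT against 5.97 in EtOH at 32 h (log2 change -1.63, adjusted p = 0.0029), and 1.57 CPM in 4HT against 5.68 in EtOH over the synchronized set. At 24 h Foxd3 averaged 3.34 CPM in 4HT against 9.23 in EtOH (adjusted p = 0.019), while at 8 h (adjusted p = 0.39) and 14 h (adjusted p = 0.14) its difference was not called. Pou5f1, which encodes OCT4, averaged 52.6 CPM in DOX against 187 in H2O at 24 h. Summed markers of stem cells lay between 957 and 3590 CPM in all libraries, while fibroblast markers stayed at or under 7.13 CPM. The stem cell list includes Sox2, which stands at 0 in every library because of where it lies, as told below.

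The 218 genes had a median span of 727 kb. Of them, 57 were over 1000 kb and 7 over 2000 kb, with Gm20388 (4434882 bases, a predicted locus on chr8), Fgfr2 (2960900, a fibroblast growth factor receptor), Ptprd (2270724, a receptor tyrosine phosphatase), Dmd (2257272, dystrophin) and Cntnap2 (2244857, a neurexin relative) the longest. These are spans of the annotation used, and those of Gm20388 and Fgfr2 hold many other genes. The 218 members lay on every chromosome from 1 to 19 and on X, and none overlapped another. By a list of roles drawn up for this report, 44 were adhesion and synapse proteins, 33 receptors and channels, 31 scaffold and cytoskeleton proteins, 20 enzymes outside signalling, 19 nuclear regulators and 16 signalling proteins, and 55 were on no list. A list of genes at fragile sites held 29 of them, among them Fhit, Wwox and Exoc4.

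Output per length was low and very uneven. In the cycling set the median level per length of all tested genes of this size class was 0.0100 CPM per kb, against 0.815 for genes of 10 to 30 kb. The same medians were 0.00682 against 0.917 in the OCT4 set and 0.0144 against 0.800 in the synchronized set. Averaged over the 3 sets, the densest were Exoc4 (an exocyst subunit, chr6:33249085-33973979) at 1.34 CPM per kb, Pard3 (a cell polarity scaffold) at 1.16, Dock1 (a Rac activator) at 0.915 and Ptprg (a receptor tyrosine phosphatase) at 0.842. Only Exoc4 and Pard3 exceeded 1 CPM per kb, and the lowest member stood at 0.000528. Ranked by this density, the 73 densest members reached down to 0.0393 CPM per kb and the 73 sparsest up to 0.00519. Median spans were 616 kb in the densest, 811 kb in the 72 between and 877 kb in the sparsest members.

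The tables also treat genes inside these spans in a particular way. A member spans a median of 4 other annotated genes, and 211 of the 218 span at least 1. Of 938 genes lying wholly inside a member on its own strand, 938 (100%) had no count in any of the 48 libraries. Of 692 genes inside a member on the opposite strand, 302 (43.6%) had no count, and among 52904 genes elsewhere 16373 (30.9%) had none. Sox2, a core stem cell factor, lies on the strand of its host Sox2ot and stands at 0, as do Tubb3 and Mc1r inside Gm20388. Counts of a member can therefore include reads of its same-strand inner genes or leave them out, and the tables do not show which. The most inner genes in any member were 211. Gm20388 and Fgfr2 each span many inner genes. Neither is used below as an example.

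The level of the long genes as a class moved between replicates, and not only between groups. For each library, every gene's deviation from its mean over the set was taken, and the median over members was set against the median over all genes. In the synchronized set this class level was 0.029 and 0.156 at 3 h in 4HT libraries, against -1.097 and -0.100 in EtOH libraries. At 4 h it was 0.564 and 0.537 in 4HT against -0.346 and 0.479 in EtOH. In the cycling set at 32 h the 4HT replicates lay close together, while the EtOH replicates stood at 0.567 and -0.114. The 2 EtOH libraries at 3 h thus lay further apart than the 4HT and EtOH means did at any hour of release, where they differed by 0.111 to 0.691 in size.

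**Figure D1:**
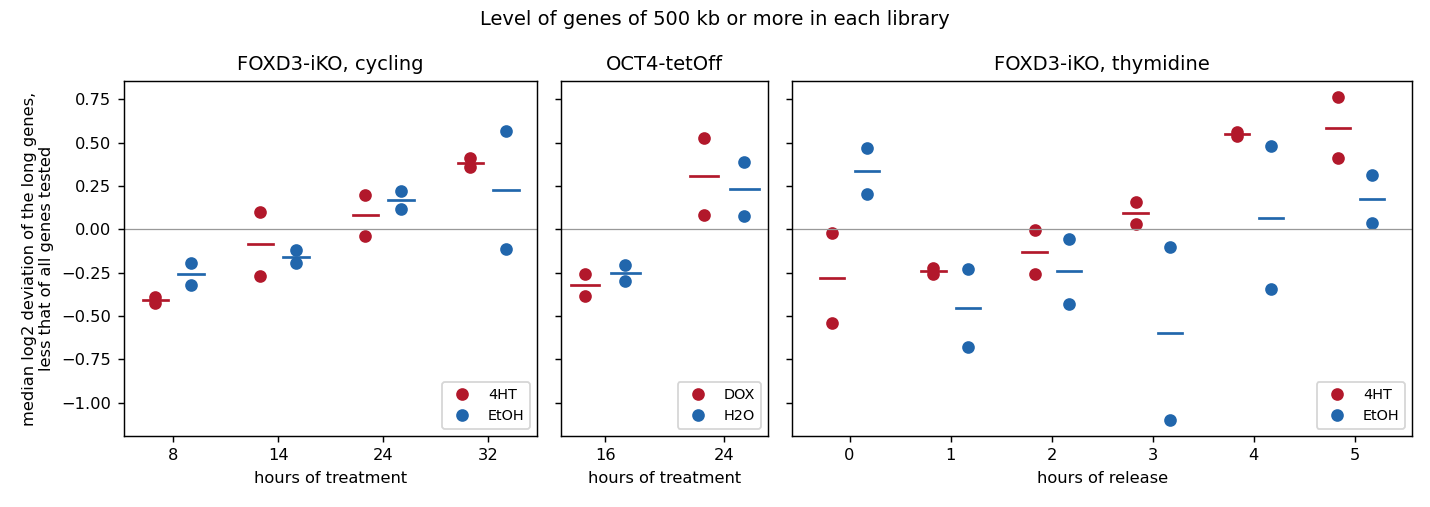
Class level of the long genes in each library: the median log2 deviation of the members less that of all genes tested (y axis), by hours of treatment or release (x axis); dots are libraries and bars group means. The 2 EtOH libraries at 3 h of release stand at -1.097 and -0.100, and the 2 EtOH libraries at 32 h at 0.567 and -0.114.

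The long genes also differed between times in vehicle cells. In EtOH cells at 32 h against 8 h, 85 of the 218 members were higher and 13 lower, with 26.4% of all genes called in either direction (15.5% higher, 10.9% lower). The members' median change, less that of all genes, was 0.543. The class level was 0.567 and -0.114 in the EtOH libraries at 32 h, against -0.194 and -0.322 at 8 h. The ribosomal RNA loci took 14.3 and 28% of their counts at 32 h, against 31.2 and 33.2% at 8 h, and the part of this was not tested. Libraries of 8 h are numbered apart from those of 32 h, so a library series cannot be told apart from time. No fit of this contrast left out a library. Changes followed length in many comparisons. For this one the median rose through the length classes to 0.526 for genes of 200 to 500 kb and was 0.520 for those of 500 kb or more, against -0.233 under 10 kb. Across all genes the rank correlation of length with this change was 0.434, while among the 218 members it was -0.137. These are correlations across genes of one comparison, whose points share libraries. Several class medians below are therefore set beside genes of 200 to 500 kb. The main counts are also given with the dependence on length removed in each library, which was not done for the separate arms and hours of release. It was removed as a smooth curve over all genes tested, members included, or as a straight line fitted to genes of 10 to 500 kb. The line is thus carried past the lengths it was fitted to, and the curve can take up part of the members' own shift. Neither can decide whether the members depart from genes of like length.

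**Figure D2:**
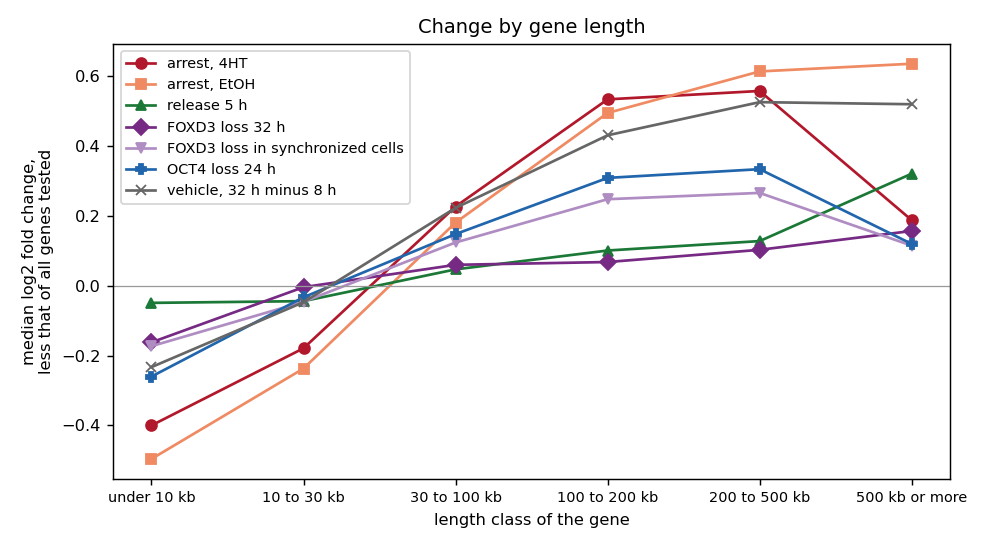
Median log2 fold change of all genes tested in 6 length classes (x axis), less the median of all genes (y axis), for 7 comparisons. Arrest in EtOH reaches 0.636 in the longest class, whereas arrest in 4HT is 0.558 at 200 to 500 kb and 0.188 in the longest class.

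Arrest was read by setting thymidine-blocked cells at 0 h against cycling cells at 24 h of the same treatment. In EtOH cells, 130 of 218 long genes were higher in arrested cells and 5 were lower, where 62.8% of all genes were called in either direction (31.7% higher, 31.1% lower). The median member stood 0.636 above the median gene, next to 0.614 for all genes of 200 to 500 kb. In 4HT cells 68 members were higher and 34 lower, where 58.8% of all genes were called (27.6% higher, 31.3% lower). There the median member stood 0.209 above the median gene, next to 0.558 for all genes of 200 to 500 kb. Removing the length trend turned both medians below 0: to -0.13 (54 higher and 80 lower) by the curve and -0.53 (25 and 126) by the line in EtOH cells, and to -0.19 (46 and 80) and -0.69 (23 and 135) in 4HT cells. The line was carried past 500 kb, though the medians of the length classes did not keep rising at one rate. From 100 to 200 kb to the longest class they went from 0.495 to 0.636 in EtOH and from 0.534 to 0.188 in 4HT cells. At each length the curve drew on the nearest 0.4 of all genes, so at the long end mostly on genes under 500 kb. The values below 0 by either therefore do not show that long genes lay under genes of like length. With the trend kept, the 4HT median was 0.00 without 4HT replicate 2 at 0 h and 0.38 without 4HT replicate 1 at 0 h. The ribosomal RNA loci took 15.6 to 19.7% of counts in arrested 4HT libraries against 29.1 to 31.2% in cycling ones, and 3.41 to 4.92% in arrested EtOH libraries against 29 to 31.8% in cycling ones. Summed primitive endoderm markers stood at 32 to 33.4 CPM in arrested 4HT libraries against 17.6 to 18.3 CPM in cycling ones, and at 28.2 to 33 CPM in arrested EtOH libraries against 15.6 to 16.6 CPM in cycling ones, while stem cell markers stood at 3410 to 3590 against 2190 to 2340 CPM in 4HT and at 2920 to 2990 against 2290 to 2320 CPM in EtOH libraries. The part of these in the result was not tested. Labelling time and the set of libraries go with arrest in this design and cannot be told apart from it.

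Among the long genes higher on arrest were receptor phosphatases and synaptic scaffolds. Ptprt, a receptor tyrosine phosphatase of neurons, stood at 54.2 and 74.2 CPM in arrested EtOH cells, against 8.53 and 9.43 CPM in cycling ones, a log2 change of 2.85 ± 0.19 (edgeR adjusted p = 4e-06). In 4HT cells Ptprt stood at 57.5 and 79.9 CPM in arrested cells, against 18.2 and 17.4 CPM in cycling ones (1.94 ± 0.18). Its relative Ptprm, an adhesive phosphatase, stood at 129 and 161 CPM in arrested EtOH cells, against 26.2 and 24.1 CPM in cycling ones (2.53 ± 0.18). The arrested and cycling libraries did not overlap for either gene in either treatment, which the rule for naming them requires. Enox1, a cell-surface oxidase, stood at 380 and 451 CPM in arrested 4HT cells, against 102 and 95.4 CPM in cycling ones (2.07 ± 0.12). Anks1b, a scaffold of the postsynaptic density, stood at 92.9 and 169 CPM in arrested EtOH cells, against 15.9 and 17.8 CPM in cycling ones (2.97 ± 0.32). Slc9a9, an endosomal sodium and proton exchanger (2.88), and Inpp4b, a phosphoinositide phosphatase (2.72), rose in arrested EtOH cells by a like amount.

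Of the 19 nuclear regulators among the long genes, 6 were called higher and 3 lower in arrested 4HT cells, and 11 and 0 in arrested EtOH cells. All genes were called as 27.6% higher and 31.3% lower in 4HT cells, and 31.7% and 31.1% in EtOH cells. Zfhx3, a large homeodomain and zinc finger factor, averaged 421 CPM in arrested 4HT cells and 227 CPM in cycling ones (0.89 ± 0.09), and 328 and 224 CPM in EtOH cells (0.55 ± 0.08). Its sign turned in EtOH cells once the length trend was removed by the curve or the line, and in 4HT cells by the line. Rora, a nuclear receptor, averaged 55.1 CPM in arrested 4HT cells and 37.3 CPM in cycling ones (0.56 ± 0.11), and its sign turned under the line. Sox5 averaged 6.13 CPM in arrested EtOH cells and 2.44 CPM in cycling ones (1.32 ± 0.15; not called with the trend removed, at 0.44 by the curve and 0.02 by the line), and Esrrg, an orphan nuclear receptor, 3.49 and 0.797 CPM (2.13 ± 0.31).

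A smaller set was lower on arrest. Gpc6, a glypican that carries heparan sulfate at the cell surface, stood at 50 and 79.4 CPM in arrested EtOH cells, against 120 and 123 CPM in cycling ones (-0.90 ± 0.26). In 4HT cells Gpc6 stood at 17.3 and 29.7 CPM in arrested cells, against 105 and 72.3 CPM in cycling ones (-1.94 ± 0.29). Snhg14, the long non-coding transcript that crosses Ube3a in antisense, fell in both arms, by 0.69 in EtOH and by 2.24 in 4HT cells. In EtOH cells Snhg14 was called in 1 of 4 fits that left out a library (-1.03 to -0.42) and not with total counts, Gpc6 in 2 of 4 (-1.27 to -0.55) and Nrxn3, below, in 3 of 4 (-1.80 to -0.97). Nrxn3, a presynaptic adhesion receptor, fell in both arms as well, by 1.46 in EtOH and by 2.47 in 4HT cells, at levels of 0.464 to 3.17 CPM. Zbtb20, a zinc finger repressor, stood at 37.5 and 69.1 CPM in arrested 4HT cells, against 263 and 175 CPM in cycling ones (-2.05 ± 0.30), while in EtOH cells its change of -0.69 was not called (adjusted p = 0.059). Diaph2, a formin that builds actin filaments, changed by -1.66 ± 0.40 in 4HT cells and by 0.09 ± 0.38 in EtOH cells.

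The densest genes behaved differently from each other. Pard3 rose on arrest in both arms, by 0.83 ± 0.15 in 4HT and 0.70 ± 0.15 in EtOH cells, and Dock1 by 0.88 ± 0.10 and 0.64 ± 0.09. Exoc4 changed by -0.85 ± 0.32 in 4HT cells (adjusted p = 0.043) and by 0.30 ± 0.31 in EtOH cells (adjusted p = 0.42). The difference between the arms was not called for any member, and for 2 genes of all tested (0.0108%). The median member difference, 4HT less EtOH and less that of all genes, was -0.697, and before adjustment p was under 0.05 for 100 members among 3166 of 18481 genes. By role, 29 of 44 adhesion and synapse genes were higher and 2 lower in arrested EtOH cells, with 20 and 2 of 33 receptors and channels, 19 and 0 of 31 scaffolds, and 15 and 1 of 29 fragile-site genes, where all genes were called as 31.7% higher and 31.1% lower. In arrested 4HT cells the adhesion and synapse genes split into 8 higher and 6 lower, and the fragile-site genes into 7 and 7, where all genes were called as 27.6% higher and 31.3% lower.

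Release was read as each hour against 0 h, averaged over the 4HT and EtOH arms. At 1 h, 2 of 218 long genes were higher and 20 lower than at 0 h, where 20.4% of all genes were called in either direction (10.6% higher, 9.8% lower). At 2 h the counts were 2 and 23 (24.8% of all genes called, 12.2% higher and 12.6% lower) and at 3 h 9 and 23 (25.2%, 11.5% and 13.7%). At 4 h they were 29 and 10 (29.6%, 13.3% and 16.2%) and at 5 h 33 and 10 (32.5%, 15.1% and 17.4%). The members' median less that of all genes was -0.376, -0.223, -0.199, 0.297 and 0.329 from 1 to 5 h. Genes of 200 to 500 kb stood at -0.301, -0.208, -0.151, 0.122 and 0.128. At every hour the members' called share was under that of all genes. With the length trend removed by the curve, the 20 lower calls at 1 h came to 5, beside 10 higher, at 2 h the counts came to 17 higher and 11 lower, at 3 h to 21 and 18, at 4 h to 33 and 19 and at 5 h to 37 and 25. Single libraries moved these counts: without EtOH or 4HT replicate 2 at 0 h they were 10 and 10 at 1 h, 13 and 14 at 2 h and 16 and 17 at 3 h. At 1 h they were 14, 13 and 11 without EtOH replicate 1 at 0 h, EtOH replicate 1 at 1 h or 4HT replicate 2 at 1 h, and at 2 h 16 and 15 without EtOH or 4HT replicate 1 at 2 h. At 3 h they were 76 without EtOH replicate 2, 21 without EtOH replicate 1 and 16 without either 4HT library at 3 h, and at 4 h 63 without EtOH replicate 1 at 4 h and 25 without 4HT replicate 1 at 0 h.

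The arms gave different values. In 4HT cells the class median was 0.002, 0.118, 0.396, 0.877 and 0.899 from 1 to 5 h, against -0.004, 0.044, 0.258, 0.399 and 0.438 for genes of 200 to 500 kb. In those cells 1, 0, 8, 42 and 49 members were higher and 2, 3, 2, 3 and 5 lower, where 6.16, 9.48, 10.4, 14.5 and 20.2% of all genes were called (3.19, 4.24, 4.39, 6.13 and 8.7% higher; 2.98, 5.24, 6.03, 8.37 and 11.5% lower). In EtOH cells the median was -0.741, -0.549, -0.818, -0.254 and -0.174, against -0.605, -0.458, -0.571, -0.172 and -0.195 for genes of 200 to 500 kb. There 1, 1, 2, 9 and 11 members were higher and 45, 27, 68, 14 and 14 lower, where 18.3, 15.8, 21.9, 18.4 and 21.4% of all genes were called (10.4, 8.58, 10.3, 8.87 and 11.8% higher; 7.93, 7.19, 11.6, 9.48 and 9.59% lower). At 5 h the difference of the arms was positive in 205 of 218 members, with a median of 0.985 above that of all genes. By edgeR it was called for 0 of 17739 genes; before adjustment, p was under 0.05 for 83 members among 3143 genes. At 0 h, the baseline of both arms, the class level was -0.537 and -0.018 in 4HT libraries, against 0.205 and 0.470 in EtOH libraries.

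The clearest single change on release was a fall of Dpyd, which encodes the enzyme that starts the breakdown of thymine and uracil. In 4HT cells Dpyd stood at 74.1 and 86.0 CPM at 0 h, 46.3 and 38.9 at 1 h, 37.6 and 39.8 at 2 h, 37.6 and 38.1 at 3 h, 41.8 and 42.6 at 4 h and 34.4 and 37.8 at 5 h. In EtOH cells it stood at 81.4 and 90.0 CPM at 0 h, 54.3 and 51.9 at 1 h, 46.9 and 45.4 at 2 h, 48.3 and 54.3 at 3 h, 53.7 and 55.1 at 4 h and 44.8 and 53.2 at 5 h. All 4 libraries at 0 h lay above all 20 later ones. The log2 change was -0.80, -0.97, -0.91, -0.79 and -0.98 from 1 to 5 h (SE 0.08 at 5 h, edgeR adjusted p = 2.5e-07). It stayed called without each library in turn, but at 1 h it was not called once the length trend was removed (-0.32 by the curve). Sox2ot, the long non-coding host of Sox2, fell by 0.39, 0.49, 0.31, 0.32 and 0.25, and was not called once the trend was removed. Its counts may include reads of Sox2, which stands at 0, so the 2 genes cannot be told apart.

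Early in release a few neuronal genes were lower in the average of the arms. With the arms apart, 45 members were lower at 1 h in EtOH and 2 in 4HT cells (all genes: 7.93 and 2.98%). Sema6d, a transmembrane semaphorin, averaged 1.52 CPM at 1 h and 3.52 CPM at 0 h (-1.20 ± 0.25, adjusted p = 0.0031). Cadm2, a synaptic adhesion protein, averaged 4.15 CPM at 1 h and 11.2 CPM at 0 h (-1.19 ± 0.28), and Asic2, an acid-sensing ion channel, 2.88 and 5.05 CPM (-0.78 ± 0.15). Of these 3 genes only Asic2 had all libraries at 1 h below all at 0 h, and only Asic2 was not called with the trend removed (-0.28 by the curve, -0.29 by the line). At 0 h, scaled together with cycling libraries, Cadm2 stood at 12.9 and 20.7 CPM in EtOH and 4.65 and 5.67 in 4HT cells. Sema6d stood there at 5.89 and 3.12 CPM in EtOH and 2.03 and 2.77 in 4HT cells, and Asic2 at 4.84 and 4.71 and at 4.4 and 5.92. The averages of Cadm2 and Sema6d thus rest on unlike starting levels. Rora averaged 42.5 CPM at 1 h and 58.0 CPM at 0 h (-0.45 ± 0.11), without overlap, though it was called in 5 of 8 fits that left out a library and its sign turned under the curve. The 2 members called higher at 1 h were Cpq, a carboxypeptidase (0.30 ± 0.07; not called with total counts or without the filter), and Enox1 (0.46 ± 0.13). Cpq stood at 20.4 and 20.2 CPM in 4HT and 20.4 and 23.2 CPM in EtOH cells at 1 h, against 17 and 17.5 CPM in 4HT and 17.3 and 16.8 CPM in EtOH cells at 0 h.

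Several long genes were higher late in release. Dab1, the adaptor that carries the reelin signal, averaged 327 CPM at 5 h and 151 CPM at 0 h over both arms (1.12 ± 0.19, adjusted p = 0.00029), with no overlap between the hours. In 4HT cells Dab1 stood at 102 and 157 CPM at 0 h, 170 and 176 at 1 h, 219 and 229 at 2 h, 277 and 318 at 3 h, 330 and 315 at 4 h and 347 and 370 at 5 h. In EtOH cells it stood at 161 and 185 CPM at 0 h, 101 and 124 at 1 h, 146 and 213 at 2 h, 138 and 206 at 3 h, 221 and 407 at 4 h and 318 and 272 at 5 h. The 4HT libraries thus stood higher at each later hour up to 3 h, whereas the EtOH libraries at 1 h lay below those at 0 h. Inpp4b averaged 56.7 CPM at 5 h and 19.0 at 0 h (1.69 ± 0.41), and Dgkb, a diacylglycerol kinase, 14.9 and 4.68 CPM (1.82 ± 0.39). Rbms3, an RNA-binding protein, rose by 1.45 ± 0.22, Slc9a9 by 1.22 ± 0.25 and Csmd1, a membrane complement regulator, by 1.26 ± 0.31. At 0 h, scaled together with cycling libraries, Inpp4b stood at 26.7 and 27.6 CPM in EtOH and 7.02 and 13.2 in 4HT cells. In that order Dgkb stood at 5.36 and 8.01 and at 2.28 and 2.77, and Csmd1 at 14.3 and 18.5 and at 6.01 and 12.7. Slc9a9 stood at 11.3 and 12.6 and at 6.01 and 8.07, and Rbms3 at 10.5 and 15.7 and at 11.6 and 13. Averages of all but Rbms3 rest on unlike starting levels. Of all members, 11 were higher at 5 h in EtOH and 49 in 4HT cells (all genes: 11.8 and 8.7%). Thsd4, a matrix protein (-0.93 ± 0.13), and Ptprn2, a phosphatase-like protein of secretory granules (-0.73 ± 0.12), fell. Exoc4 averaged 1890 CPM at 5 h and 970 at 0 h, a change that was not called (adjusted p = 0.072): its 0 h values were 425 and 804 CPM in 4HT and 958 and 1690 CPM in EtOH cells. The libraries of Exoc4, the member with the most counts, overlapped between 5 h and 0 h.

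**Figure D3:**
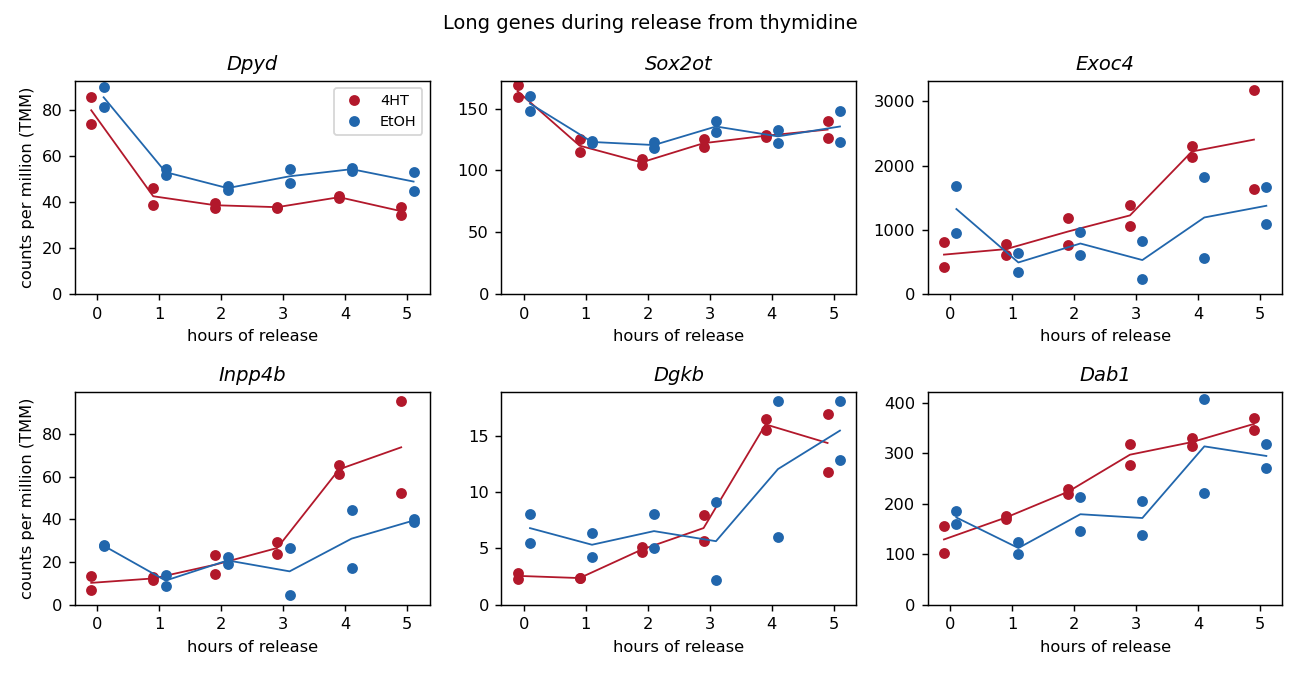
Level in TMM-scaled CPM (y axis) of 6 long genes by hours after release (x axis) in 4HT and EtOH libraries; dots are libraries and lines join group means. All 4 Dpyd values at 0 h lie above all later ones, while the Exoc4 values at 0 h range from 425 to 1690.

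Loss of FOXD3 in cycling cells called no long gene at 8, 14 or 24 h by edgeR, where 0.0107, 0.016 and 0.481% of all genes were called (0.00535, 0.0107 and 0.401% higher; 0.00535, 0.00535 and 0.0802% lower). At these times 5, 3 and 15 members had an unadjusted p under 0.05, of 528, 750 and 1579 such genes among 18707, and DESeq2 called 1 at 24 h. At 32 h, 14 members were higher in 4HT cells and 0 lower, where 9.47% of all genes were called in either direction (4.88% higher, 4.59% lower). The members' median stood 0.171 above that of all genes, next to 0.103 for genes of 200 to 500 kb. The members' value was -0.06 without EtOH replicate 2 and 0.51 without EtOH replicate 1. This count ranged from 6 without either 4HT library to 25 without EtOH replicate 2 and 83 without EtOH replicate 1. The 4HT libraries held 13.9 and 12.5% of their counts in the ribosomal RNA loci, against 14.3 and 28% in the 2 EtOH libraries. The part of this difference in the result was not tested. Once the length trend was removed, 28 were higher and 18 lower by the curve, and 20 and 26 by the line.

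Ptprt led the 14. It stood at 46.1 and 47.2 CPM in 4HT cells, against 13.4 and 7.86 CPM in EtOH cells at 32 h (2.14 ± 0.22, adjusted p = 5.6e-05). At 24 h Ptprt stood at 17.3 and 16.3 CPM in 4HT against 8.22 and 8.96 CPM in EtOH (0.97 ± 0.22), which was not called (adjusted p = 0.084). Anks1b stood at 77.1 and 78.8 CPM in 4HT against 32.9 and 18.2 CPM in EtOH at 32 h (1.61 ± 0.22). Lrmda, a leucine-rich repeat protein tied to melanocyte differentiation, stood at 11.6 and 10.6 CPM in 4HT against 4.50 and 3.17 CPM in EtOH (1.54 ± 0.17). Adamtsl1, a secreted matrix protein, stood at 64.3 and 65.2 CPM in 4HT against 41.9 and 24.9 CPM in EtOH (0.96 ± 0.17). These 4 remained called without each library in turn. The others called included Inpp4b (1.05), Fhit, a fragile-site gene for a dinucleotide hydrolase (0.85), and Rbms3 (0.78). None of these stayed called without each library in turn. Their changes then ranged from 0.67 to 1.55 for Inpp4b, 0.56 to 1.2 for Fhit and 0.43 to 1.22 for Rbms3. At 24 h, the fragile-site gene Fhit (0.38 ± 0.18, adjusted p = 0.60) and the nuclear regulator Auts2 (-0.27 ± 0.21, adjusted p = 0.87), were not called. The difference between 32 and 24 h was called for 0 genes by edgeR, and 18 members had an unadjusted p under 0.05, of 1395 such genes among 18707. In the sum of trophectoderm markers, 4HT libraries stood at 77.1 and 81.4 CPM against 41.5 and 57.9 CPM in EtOH libraries at 32 h, primitive endoderm markers at 17.2 to 18 against 12.1 to 12.6 CPM, and stem cell markers at 2400 to 2440 against 2650 to 2820 CPM. Their part in these changes was not tested.

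In the synchronized set, with 12 libraries of each treatment, 56 long genes were higher and 13 lower in 4HT cells, where 36.9% of all genes were called (18.7% higher, 18.2% lower). EtOH libraries of this set are numbered apart from 4HT libraries, with the hours of each replicate in a row. A library series thus cannot be told apart from treatment. The fit took the 12 libraries of a treatment as independent, and the labels do not say whether they are. The median member stood 0.146 above the median gene, under the 0.266 of genes of 200 to 500 kb. With the length trend removed the split was 33 higher and 48 lower by the curve, and 22 and 91 by the line. Over 1 to 5 h of release alone, a choice made after the data were seen because the libraries at 0 h lay the other way, 83 were higher and 9 lower and the median stood at 0.33. Of the 56 higher genes, 37 were among the 73 densest members, 16 in the middle and 3 among the 73 sparsest, whereas of the 13 lower ones 2, 4 and 7 were. The median change, less that of all genes, was 0.34 over the 73 densest and -0.08 over the 73 sparsest members. Summed trophectoderm markers stood at 66.1 to 68.2 CPM in 4HT libraries against 36.1 to 44 CPM in EtOH libraries at 0 h, and their part was not tested. Count depth goes with density, and its part in the split was not tested.

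Csmd2, a large membrane protein with complement-control repeats, ranged from 39.8 to 62.2 CPM in the 4HT libraries, against 21.7 to 37.9 CPM in the EtOH libraries, with means of 49.1 and 29.7 CPM (0.73 ± 0.06, adjusted p = 2.8e-07). The 12 libraries of each treatment did not overlap. Ptprt averaged 69.8 CPM in 4HT and 38.4 CPM in EtOH (0.92 ± 0.12), and Dscam, a neuronal cell adhesion molecule, 16.4 and 8.98 CPM (0.85 ± 0.09). Among dense genes, Smyd3, a lysine methyltransferase, averaged 438 CPM in 4HT and 314 CPM in EtOH (0.49 ± 0.10; not called by the line, at 0.15). The fragile-site gene Wwox, an oxidoreductase, changed by 0.45 ± 0.09 but was not called with the trend removed (0.17 by the curve, 0.03 by the line), and Rad51b, a recombination protein, changed by 0.54 ± 0.14. Cdh13, a cadherin without a cytoplasmic tail, averaged 19.5 CPM in 4HT and 27.4 CPM in EtOH (-0.50 ± 0.06). Dpyd averaged 46.3 CPM in 4HT and 56.6 CPM in EtOH (-0.32 ± 0.05).

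By hour of release the class median of 4HT against EtOH, less that of all genes, was -0.70 at 0 h and 0.18, 0.08, 0.57, 0.42 and 0.40 from 1 to 5 h. The counts of members called were 0 higher and 2 lower at 0 h, 3 and 0 at 1 h, 3 and 0 at 2 h, 12 and 1 at 3 h, 1 and 0 at 4 h and 4 and 0 at 5 h. All genes were called at 0.445, 2.40, 0.789, 3.49, 0.519 and 2.22% in these hours. The 12 calls at 3 h fall at the hour where an EtOH library stood at -1.097 in class level.

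Loss of OCT4 changed long genes in both directions. At 16 h, 21 of 215 tested members were higher and 26 lower in DOX cells, where 16.9% of all genes were called in either direction (7.94% higher, 8.91% lower). At 24 h, 50 were higher and 37 lower, where 36.9% were called (18.1% higher, 18.7% lower). The members' median less that of all genes was -0.047 at 16 h and 0.110 at 24 h, the second at -0.07 without DOX replicate 2 and 0.32 without DOX replicate 1. Genes of 200 to 500 kb stood at 0.077 at 16 h and 0.334 at 24 h. The count at 16 h came to 18, 21, 25 and 25 when H2O replicate 1, H2O replicate 2, DOX replicate 1 or DOX replicate 2 was left out. With the length trend removed, 53 members were higher and 71 lower at 24 h by the curve, and 47 and 87 by the line, while at 16 h the splits were 35 and 47, and 33 and 51.

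Genes for neuronal channels, receptors and RNA-binding proteins were among those higher in DOX cells. Cacna2d3, an auxiliary subunit of calcium channels, stood at 28 and 44 CPM in DOX cells, against 2.13 and 2.67 CPM in H2O cells at 24 h (3.91 ± 0.29, adjusted p = 1.5e-05). At 16 h it stood at 4.86 and 7.81 CPM in DOX cells, against 1.07 and 1.49 CPM in H2O cells (2.32 ± 0.37). Grm8, a metabotropic glutamate receptor, stood at 26.4 and 42.2 CPM in DOX against 2.73 and 3.32 CPM in H2O at 24 h (3.51 ± 0.24). Neither gene overlapped between the treatments at either time, which the rule for naming them requires. Ptprm stood at 168 and 263 CPM in DOX against 23.6 and 34.1 CPM in H2O (2.90 ± 0.25). The splicing regulator Rbfox1 stood at 39.2 and 61.8 CPM in DOX against 5.69 and 6.97 CPM in H2O (3.0 ± 0.22), and the RNA-binding protein Celf2 at 160 and 251 CPM in DOX against 38 and 58.6 CPM in H2O (2.09 ± 0.24).

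Transcription factors and guidance receptors rose as well. Sox5 stood at 18.7 and 26.5 CPM in DOX against 4.03 and 4.26 CPM in H2O at 24 h (2.45 ± 0.22). Its close relative Sox6, likewise a factor of neural and cartilage development, stood at 18.2 and 33.2 CPM in DOX against 3.91 and 6.93 CPM in H2O (2.26 ± 0.31). Robo2, a receptor for Slit guidance cues, stood at 9.68 and 15.9 CPM in DOX against 2.13 and 2.95 CPM in H2O (2.34 ± 0.27). In all of these DOX replicate 2 was the higher of its pair, and so was H2O replicate 2. The densest members changed less: Pard3 stood at 433 and 707 CPM in DOX against 254 and 402 CPM in H2O (0.80 ± 0.25, adjusted p = 0.033), and Dock1 at 657 and 997 CPM in DOX against 381 and 595 CPM in H2O (0.76 ± 0.23). Exoc4 stood at 940 and 1660 CPM in DOX against 708 and 1140 CPM in H2O, which was not called (0.50 ± 0.28, adjusted p = 0.19). Of the fragile-site genes, 6 of 29 were higher and 2 lower (all genes: 18.1% higher and 18.7% lower), among the higher Magi2, a synaptic scaffold (1.33 ± 0.23).

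Signalling and adhesion genes were among those lower. Pde4b, a phosphodiesterase that breaks down cyclic AMP, stood at 0.240 and 0.406 CPM in DOX cells, against 6.92 and 9.92 CPM in H2O cells at 24 h (-4.69 ± 0.30, adjusted p = 6e-06). The fall of Pde4b was already -4.08 ± 0.35 at 16 h. Ntrk3, the receptor for neurotrophin-3, stood at 1.75 and 1.92 CPM in DOX against 20.4 and 27.4 CPM in H2O (-3.70 ± 0.19). Cdh13 stood at 1.30 and 1.44 CPM in DOX against 12.1 and 16.0 CPM in H2O (-3.34 ± 0.20), and Tenm1, a teneurin adhesion receptor, at 1.96 and 3.21 CPM in DOX against 19.8 and 29.2 CPM in H2O (-3.25 ± 0.27). Nell1, a secreted EGF-repeat protein (-3.69 ± 0.35), Dgkb (-3.04 ± 0.21), Fgf13, an intracellular fibroblast growth factor homologue (-1.98 ± 0.25), Dab1 (-1.90 ± 0.26) and Negr1, a neuronal adhesion protein (-1.91 ± 0.35), fell too. The groups did not overlap for any of these, which the rule for naming them requires. Sox2ot fell as well, to 111 and 99.8 CPM in DOX cells, against 180 and 162 CPM in H2O cells (-0.70 ± 0.11), in counts that may include reads of Sox2. Between 16 and 24 h the effect of OCT4 loss differed for 0 genes by edgeR, and 31 members had an unadjusted p under 0.05, of 1952 such genes among 17713.

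By role, signalling genes were called as 2 higher and 6 lower of 15 at 24 h and 0 and 7 at 16 h, and nuclear regulators as 7 and 1 of 19 at 24 h and 4 and 0 at 16 h. All genes were called as 18.1% higher and 18.7% lower at 24 h and 7.94% and 8.91% at 16 h. Adhesion and synapse genes were 5 higher and 11 lower of 43, receptors and channels 10 and 6 of 33, and scaffolds 9 and 3 of 31 at 24 h. The 21 called members named for the size of their change or from the fragile-site and nuclear lists at 24 h stayed called without each library and under every other setting tried. The densest members, such as Pard3 and Dock1, were not among these 21. Markers of other cell types moved with these changes: at 24 h summed neural markers stood at 52.3 to 72.8 CPM in DOX libraries against 17.2 to 19.5 CPM in H2O libraries, with Neurod1, Sox1 and Tubb3 at 0, and trophectoderm markers at 118 to 143 against 49.0 to 52.7 CPM. Tubb3 lies inside Gm20388 on its strand, so its 0 does not show that it was silent. Primitive endoderm markers stood at 28.2 to 28.5 CPM in DOX libraries against 4.54 to 5.06 CPM in H2O libraries, and fibroblast markers at 5.72 to 6.35 against 3.88 to 4.15 CPM. Summed stem cell markers stood at 957 to 1060 CPM in DOX libraries against 2700 to 2710 CPM in H2O libraries. Their part in the results was not tested. Fewer cells of a type and less RNA per cell cannot be told apart in these bulk samples.

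**Figure D4:**
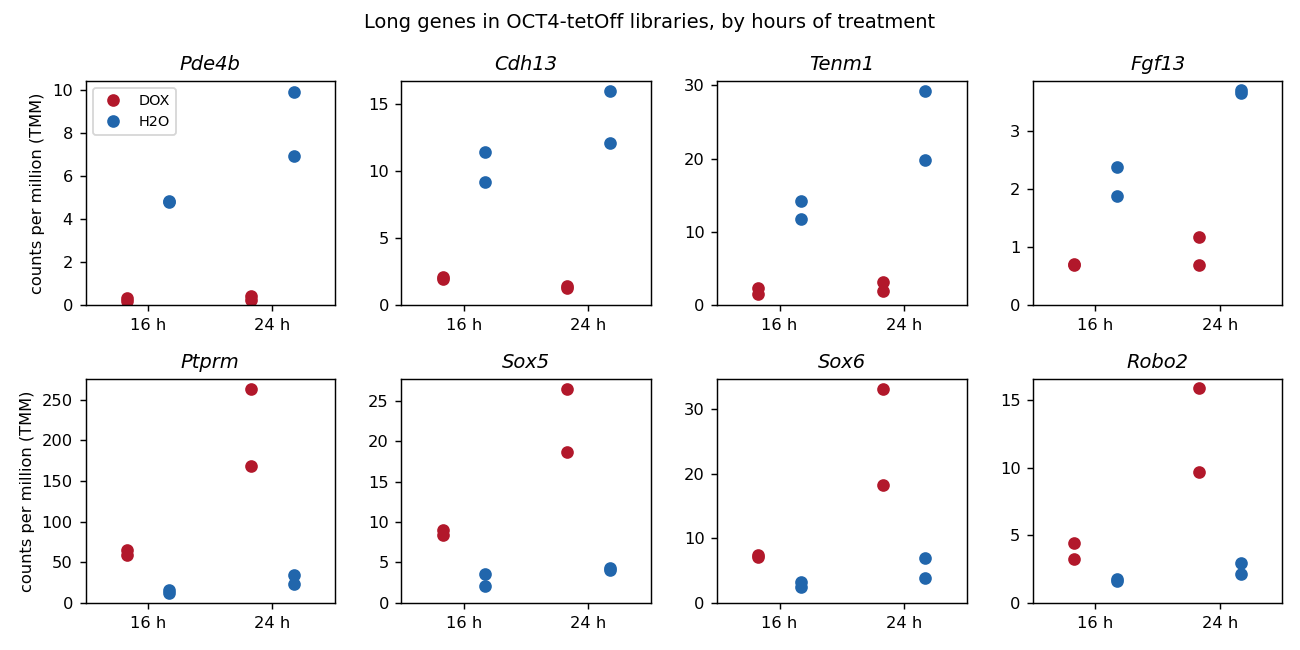
Level in TMM-scaled CPM (y axis) of 8 long genes at 16 and 24 h (x axis) in DOX and H2O libraries of OCT4-tetOff cells; each dot is a library. Pde4b, Cdh13, Tenm1 and Fgf13 lie lower and Ptprm, Sox5, Sox6 and Robo2 higher in DOX cells, with no overlap at either time.

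Because single long genes moved so far in opposite directions after OCT4 loss, the start sites of 4 of them are shown, 2 lower (Nell1, Fgf13) and 2 higher (Cacna2d3, Grm8). RefSeq promoters on GRCm38.p6, of 250 bases before to 50 after a start, matched 131 of the 218 members within 2000 bases of the deposited gene start. The 4 genes shown had the largest changes each way among called, matched members whose groups did not overlap. Pde4b, Ntrk3, Cdh13, Tenm1 and Dgkb, which fell further than Fgf13, had no match. The starts used lay 486 (Nell1), 723 (Fgf13), 0 (Cacna2d3) and 32 bases (Grm8) from the deposited gene start. The 4 windows are chr7:49975100-49975399 on the plus strand for Nell1, chrX:59567299-59567598 on the minus strand for Fgf13, chr14:29721815-29722114 on the minus strand for Cacna2d3 and chr6:28135097-28135396 on the minus strand for Grm8. CG dinucleotides are in capitals. Each reads 5′ to 3′:
Nell1: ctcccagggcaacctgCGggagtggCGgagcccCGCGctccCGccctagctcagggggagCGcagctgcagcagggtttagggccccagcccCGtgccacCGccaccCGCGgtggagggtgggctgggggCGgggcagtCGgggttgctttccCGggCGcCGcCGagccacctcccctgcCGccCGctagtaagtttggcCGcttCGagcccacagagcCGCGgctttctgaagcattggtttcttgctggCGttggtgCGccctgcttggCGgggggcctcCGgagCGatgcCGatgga
Fgf13: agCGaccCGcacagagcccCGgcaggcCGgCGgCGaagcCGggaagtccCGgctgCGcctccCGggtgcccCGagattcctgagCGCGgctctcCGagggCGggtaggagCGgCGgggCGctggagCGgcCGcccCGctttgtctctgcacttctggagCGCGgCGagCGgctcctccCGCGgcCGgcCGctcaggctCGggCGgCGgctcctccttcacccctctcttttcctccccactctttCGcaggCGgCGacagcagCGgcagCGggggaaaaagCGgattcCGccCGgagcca
Cacna2d3: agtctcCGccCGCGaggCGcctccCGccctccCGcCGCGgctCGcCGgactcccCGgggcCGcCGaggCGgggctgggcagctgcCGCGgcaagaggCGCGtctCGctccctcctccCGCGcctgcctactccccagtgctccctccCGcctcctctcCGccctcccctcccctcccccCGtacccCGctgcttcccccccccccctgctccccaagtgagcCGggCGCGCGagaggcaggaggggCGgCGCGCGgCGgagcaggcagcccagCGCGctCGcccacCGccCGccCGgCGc
Grm8: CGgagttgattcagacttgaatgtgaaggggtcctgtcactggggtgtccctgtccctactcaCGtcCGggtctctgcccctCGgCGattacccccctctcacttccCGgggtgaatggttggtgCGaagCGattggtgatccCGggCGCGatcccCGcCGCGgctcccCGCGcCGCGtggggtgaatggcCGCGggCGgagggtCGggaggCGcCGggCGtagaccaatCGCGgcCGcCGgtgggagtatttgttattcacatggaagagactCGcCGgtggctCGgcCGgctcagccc

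These windows hold 28 (Nell1), 40 (Fgf13), 41 (Cacna2d3) and 33 (Grm8) CG dinucleotides. The median was 26 over the 32 matched members higher in DOX cells at 24 h, 21 over the 19 lower, 19 over all 131 and 7 over the 32851 promoters of the table. The octamer to which POU factors bind, searched as ATGCAAAT and on the other strand ATTTGCAT, lay in 1 matched member (0.763%), in 0 of the 32 higher and 0 of the 19 lower ones, and in 1.74% of all promoters. A forkhead motif, TGTTTAC or GTAAACA, lay in 0 of the 131 and in 3.65% of all promoters. The TATA motif, TATAAA or TTTATA, lay in 9.92% of members and 13.6% of all promoters. The searches concern these letters in these windows alone.

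At 24 h FOXD3 loss called 0 members and 0.481% of all genes, so its values for the genes that OCT4 loss changed are given as levels. Pde4b stood at 14.2 and 11.7 CPM in 4HT against 10.9 and 12.5 CPM in EtOH cells. Cacna2d3 stood at 4.86 and 4.62 CPM in 4HT against 6.55 and 6.87 CPM in EtOH, and Cdh13 at 10.2 and 8.30 CPM in 4HT against 16.2 and 15.9 CPM in EtOH (-0.80 ± 0.24, adjusted p = 0.23). A joint fit over both sets tested the difference of the 2 losses, FOXD3 minus OCT4: 25 of 217 members were higher and 30 lower, where 16.5% of all genes were called in either direction (9.07% higher, 7.4% lower). The difference was 4.85 ± 0.37 for Pde4b, 3.33 for Nell1, 3.23 for Ntrk3 and 2.55 for Cdh13, and -4.41 ± 0.33 for Cacna2d3, -3.33 for Grm8 and -2.79 for Ptprm. The count of 55 came to 30, 33 and 35 without EtOH replicate 1, EtOH replicate 2 or 4HT replicate 2 of the FOXD3 set and to 96 without DOX replicate 1, and with the length trend removed the split was 56 higher and 44 lower by the curve and 61 and 30 by the line. Foxd3 itself fell by 3.12 on the log2 scale in DOX cells at 24 h, and by 1.46 in 4HT cells at that time. The lines differ besides in the agents used, so the difference covers line and agent as well as factor.

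**Figure D5:**
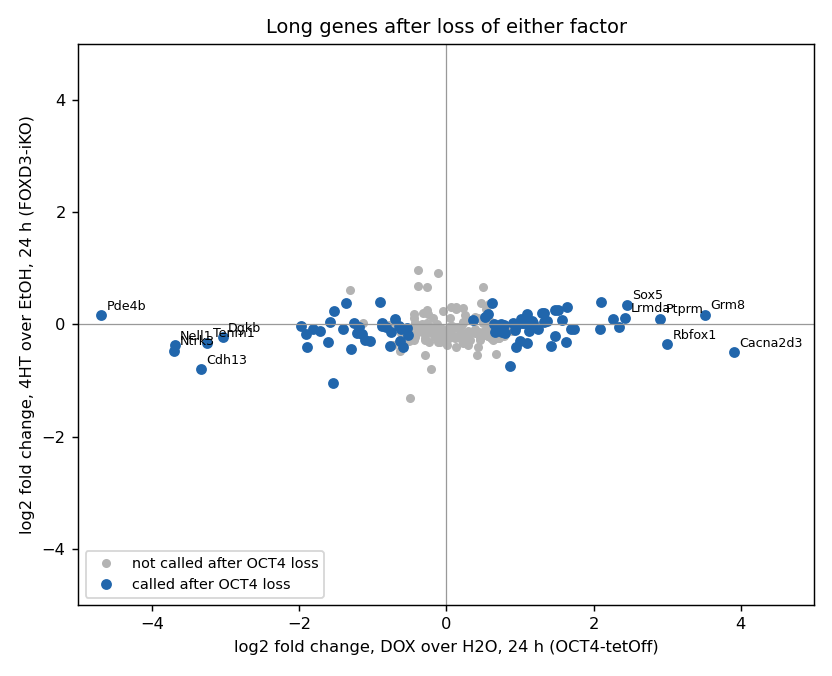
Log2 fold change of each long gene after OCT4 loss (x axis, DOX over H2O) and after FOXD3 loss (y axis, 4HT over EtOH) at 24 h; each dot is a gene and blue dots were called after OCT4 loss. OCT4 changes run from -4.69 (Pde4b) to 3.91 (Cacna2d3), where the same genes changed by 0.16 and -0.50 after FOXD3 loss.

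Genes that act on elongation were followed from a list of 36, mostly elongation factors and topoisomerases but also Nelfa, Nelfb, Nelfcd and Nelfe, which make up the pausing complex NELF, and Hexim1 and Larp7, which hold the kinase P-TEFb inactive. In 4HT cells of the synchronized set 16 were higher and 0 lower, Nelfa among the higher (all genes: 18.7 and 18.2%). At 5 h of release 8 were higher and 1 lower than at 0 h (all genes: 15.1 and 17.4%). On arrest 8 were higher and 14 lower in 4HT cells (all genes: 27.6 and 31.3%), and 7 and 15 in EtOH cells (31.7 and 31.1%). After OCT4 loss at 24 h 6 were higher and 4 lower (all genes: 18.1 and 18.7%), and after FOXD3 loss at 32 h 1 and 0 (4.88 and 4.59%). Top2a, the DNA topoisomerase of dividing cells, averaged 131 CPM in arrested EtOH cells and 402 CPM in cycling ones (-1.61), and 321 CPM at 5 h of release against 139 CPM at 0 h (1.21). Top2b, the topoisomerase also active in non-dividing cells, averaged 130 CPM in DOX cells and 73.2 CPM in H2O cells at 24 h (0.83).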

How the data were processed

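The authors deposited 3 tables of raw counts per gene, whole numbers over 54752 genes; per the submitters' processing notes, reads were aligned to mm10 with STAR and counted with featureCounts, versions and strand setting not given in the sources used here. The deposited gene length equals end minus start plus 1 for every gene, so introns are inside. Counts were tested with edgeR 4.0.16 (quasi-likelihood, TMM, filterByExpr at 10 counts, 1 mean per group, Benjamini-Hochberg at 0.05; R 4.3.3), each table in its own fit, with joint fits for arrest and for FOXD3 against OCT4; the code was tested on simulated data. The tests leave out no library. Alternatives were DESeq2 1.42.0 and its size factors, total counts, no filter, a replicate block, removal of the length trend (limma 3.58.1 tools), 300000 bases as minimum length and leaving out each library. Genes are named by rule: per comparison up to 8 called members with non-overlapping libraries and the largest change each way, the 10 densest and 5 longest members, and up to 4 of the fragile-site, nuclear and elongation lists by p. A gene named in a comparison where the rule did not take it was chosen after its values were seen. Members and lists were chosen with earlier results of these data known.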

Additional observations from a re-analysis of the deposited data

Results flagged for a closer look

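Each item compares the class level of the long genes (median log2 deviation of the members less that of all genes, averaged over 2 libraries). Each was picked out because all libraries of one side lay beyond all of the other while, at another hour or in the other arm, the libraries lay apart the opposite way; these opposite differences were not tested against each other. Groups of 2 are too small for a check of single outlying libraries. At 0 h of release 4HT less EtOH was -0.61, with -0.537 and -0.018 in 4HT libraries and 0.205 and 0.470 in EtOH libraries. At 3, 4 and 5 h the same difference was 0.69, 0.48 and 0.41, so its sign at 0 h is opposite to that at these hours. At 3 h against 0 h, the 4HT arm was higher by 0.37, while the EtOH arm fell by 0.94. The part of rRNA content, depth or single libraries in these differences was not tested.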

How the results depend on the processing

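The 2 libraries of each group limit every call, and genes of a few counts per library can show only large changes. Results are counts of members called and class medians (members less all genes). Where a setting below has no value for a result, the count stayed within 1.5 times and the median within the spread between replicates. With 300000 bases as the minimum the counts were 336 (arrest, EtOH), 272 (arrest, 4HT), 77, 87, 101, 102 and 122 (release, 1 to 5 h), 47 (FOXD3, 32 h), 210 (FOXD3, synchronized), 109 and 220 (OCT4, 16 and 24 h) and 136 (FOXD3 minus OCT4), as more genes are counted. Without the filter they were 100, 55, 67, 90 and 107 (release), 4 and 42 (FOXD3, 24 and 32 h), 109 (synchronized), 76 (OCT4, 16 h) and 100 (FOXD3 minus OCT4). With total counts they were 37 (release, 1 h) and 1 and 33 (FOXD3, 24 and 32 h), and DESeq2 gave 1 at 24 h. With the curve removed they were 10 and 46 (FOXD3, 24 and 32 h), 82 (OCT4, 16 h) and 100 (FOXD3 minus OCT4). With the line removed they were 158 (arrest, 4HT), 14 and 67 (release, 1 and 5 h), 7 and 46 (FOXD3, 24 and 32 h), 113 (synchronized), 84 and 134 (OCT4, 16 and 24 h) and 91 (FOXD3 minus OCT4). The class medians came to -0.13 (arrest, EtOH), -0.19 (arrest, 4HT), 0.04 (release, 1 h), 0.02 (FOXD3, 8 h), -0.18 (OCT4, 24 h) and 0.15 (FOXD3 minus OCT4) with the curve removed. With the line removed they were -0.53, -0.69, 0.04 (release, 1 h), 0.04 (release, 2 h), 0.02, -0.25 (FOXD3, synchronized), -0.33 and 0.38. The cause of these shifts was not tested beyond the removal of the trend itself. Leaving out 1 library gave counts of 10 to 23, 13 to 27, 16 to 76 and 25 to 63 at 1, 2, 3 and 4 h of release; the 76 came without EtOH replicate 2 at 3 h and the 63 without EtOH replicate 1 at 4 h. It gave 6 to 83 (FOXD3, 32 h), 18 to 25 (OCT4, 16 h) and 30 to 96 (FOXD3 minus OCT4), and medians of -0.09 to 0.33 and -0.21 to 0.04 (FOXD3, 14 and 24 h), -0.09 to 0.03 (OCT4, 16 h) and -0.48 to -0.03 (FOXD3 minus OCT4). With replicate number as a block the counts were 47 and 72 at 1 and 5 h of release. The numbers share no stated origin, and same-numbered libraries correlated at -0.236 to 0.565 in the synchronized set (median 0.137), so the block is given here only. Among EtOH groups at 0 to 4 h of release the correlations were all positive, at 0.215 to 0.565. Between these groups and EtOH at 5 h they were -0.236 to 0.199. Of 3796 values of single genes under other settings, 3404 kept direction and call. Single genes that reversed were, on arrest in EtOH cells, Zfhx3 (-0.30 curve, -0.75 line); on arrest in 4HT cells by the line, Rora (-0.26) and Zfhx3 (-0.01); at 1 h of release, Rora (0.01), Sdk1 (0.01), Sox2ot (0.02) and Foxp1 (0.13) by the curve and Sox2ot (0.00) and Foxp1 (0.12) by the line; and in synchronized 4HT cells by the line, Auts2 (-0.10) and Zfhx3 (-0.01).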
